A study of Drosophila melanogaster with 16 samples.

Results

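The comparison described here asks what differed in the RNA of fat body dissected with the ovaries of homozygous dLmx1a mutant females, set against the same tissues of heterozygous females. It rests on 8 of the 16 libraries of the series, 4 from homozygous females (Homoz FB+ovaries) and 4 from heterozygous females (Het FB+ovaries), fitted on their own. Of the 16727 genes in the deposited table, 7890 had a mean normalised count of at least 10 over these 8 libraries and were tested. The titles gave the Homoz FB+ovaries females only as homozygous, and the name of the allele, dLmx1a delta1, comes from the genotype field. These females were recognised by lacking a GFP-marked balancer. The Het FB+ovaries females carried dLmx1a delta1 over that balancer, TM3-GFP, so no library came from animals without the mutation. The genotype field of the homozygous samples counts the allele number of the second chromosome upward from sample to sample, and the titles were followed. All animals came from 1 balanced stock kept at 25 °C and were females taken at the passage from late larva to prepupa, given as LL3/P0. The other 8 libraries were fat body without ovaries from the same genotypes (4 Homoz FB and 4 Het FB), and are used below only to set a fold beside one without ovaries.

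dLmx1a (CG32105, named Lmx1a in the RefSeq table) encodes a LIM-homeodomain transcription factor. At this stage the somatic cells of the ovary assemble terminal filaments, stacks of flattened cells that start each ovariole, and the cap cells at their base, which hold the germline stem cells. Terminal filament and cap cells express engrailed and its neighbour invected, and the secreted signal Hedgehog, whose receptor Patched is both the brake on the pathway in receiving cells and a target that the pathway turns on. The fat body that surrounds the ovary stores lipid, glycogen and larval serum proteins and secretes immune peptides.

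Values are the authors' normalised read counts. A fold is the mean of log2(normalised count + 1) in Homoz FB+ovaries minus that in Het FB+ovaries, with its standard error, from limma with p-values adjusted over the 7890 genes by the Benjamini-Hochberg method; a gene is called at an adjusted p below 0.05. The pseudocount of 1 makes folds of low genes smaller than their ratios. The labels do not say that libraries of one group came from different animals, so p-values reflect only how much the sequenced libraries vary. In such mixed tissue, fewer cells of a type and less RNA per cell cannot be told apart.

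The 8 libraries held 21174083 to 28340693 reads and 10707 to 10970 genes with a read, and the groups covered nearly the same range of depth (21174083 to 28340693 reads in Homoz FB+ovaries and 21483771 to 26301429 in Het FB+ovaries). Both groups held ovarian RNA: Wnt4, a Wnt ligand of ovarian somatic cells, averaged 705 ± 65.3 and 714 ± 112 (SD, n = 4 each) with ovaries, against 0.980 in Homoz FB and 6.92 in Het FB, and the germline helicase vas averaged 511 and 556 with ovaries against 4.48 and 13.8 without. Summed fat body markers ran from 11291622 to 13102553 in Homoz FB+ovaries and from 10862100 to 11931135 in Het FB+ovaries. Muscle markers summed to 4392 to 4720 and 3853 to 4783, hemocyte markers to 1100 to 2344 and 1131 to 2495, and gut markers to 2.29 to 9.42 and 3.67 to 15.1. Salivary glue transcripts set 1 library apart: they summed to 2060 in Homoz FB+ovaries replicate 2, and to at most 89.5 in any Het FB+ovaries library. Without that library 248 genes were called in place of 232. The first principal component, with 33.56% of the variance, placed the Homoz FB+ovaries libraries between -31.1 and -14.1 and the Het FB+ovaries libraries between 13.3 and 23.8.

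The mutated gene itself did not differ in its count. CG32105 (3L, bases 12329232 to 12335901 of Release 6) had 564, 671, 742 and 682 normalised counts in Homoz FB+ovaries and 578, 518, 723 and 649 in Het FB+ovaries, so the groups overlapped (log2 fold 0.11 ± 0.13, adjusted p = 0.686). Without ovaries it was close to 0, with means of 1.39 in Homoz FB and 6.87 in Het FB. A count over the whole gene does not show which part of it the delta1 lesion removes, and it therefore does not check the genotype labels. The eye pigment transporter gene w, placed on the X chromosome, did separate the groups, at 0 to 2.34 in Homoz FB+ovaries and 94.5 to 202 in Het FB+ovaries (log2 fold -6.04 ± 0.43, adjusted p = 0.000157). It was also called lower in fat body alone (log2 fold -4.67, adjusted p = 0.0085).

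Across all genes, 96 were higher and 136 lower in Homoz FB+ovaries, 1.22% and 1.72% of those tested and 2.94% together. The groups did not overlap for any of the 232 called genes, nor for 12.1% of all genes tested. At least a 2-fold difference separated 32 of the higher and 67 of the lower genes, and at least a 4-fold difference 4 and 31. Same-numbered libraries of the 2 genotypes deviated together, and a fit that blocked on the replicate number called 357 higher and 330 lower genes (4.52% and 4.18%), among them 230 of the 232. With library totals set equal the split moved to 57 higher and 182 lower, and the median of all folds to -0.07. Leaving out 1 library gave 82 to 248 calls: 82 without Het FB+ovaries replicate 3, 93 without Het replicate 4, 122 without Het replicate 1, 147 without Het replicate 2, 129 without Homoz replicate 3, 129 without Homoz replicate 4, 153 without Homoz replicate 1 and 248 without Homoz replicate 2.

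Of the 9 tested genes of terminal filament and cap cells, 3 were lower in Homoz FB+ovaries (en, inv and hh) and none was higher, against 2.94% called over all genes. The median fold of the list was 0.13, against -0.00226 over all genes. The transcription factor engrailed had 6.67, 3.44, 2.34 and 5.49 counts in Homoz FB+ovaries and 35.2, 13.8, 27.4 and 30.3 in Het FB+ovaries. Every Homoz library lay below every Het library (log2 fold -2.33 ± 0.41, adjusted p = 0.0198). Its neighbour and paralogue invected had 5.72, 10.3, 8.58 and 9.42 counts in Homoz FB+ovaries and 24.1, 25.8, 46.5 and 48.7 in Het FB+ovaries, again without overlap (log2 fold -1.93 ± 0.31, adjusted p = 0.0147). Hedgehog, the signal sent by these cells, was at 21.9 to 25.0 in Homoz FB+ovaries and at 78.5, 54.1, 88.0 and 97.4 in Het FB+ovaries. The 4 Homoz libraries were close to each other, and all lay below the lowest Het library (log2 fold -1.72 ± 0.19, adjusted p = 0.00218). In fat body alone all 3 genes were too low to be tested, with means of 1.15, 5.45 and 3.58 in Homoz FB and 1.02, 6.09 and 4.16 in Het FB. The hh call held with any 1 library left out. The en call did not hold without Het FB+ovaries replicate 1, 3 or 4 (adjusted p = 0.0724, 0.0847 and 0.0761), nor that of inv without Het replicate 3 or 4 (0.0650 and 0.0588) or with all 16 libraries in the fit (0.273).

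Other genes of the same cells were not called. The BTB-domain factors bab1 and bab2, which terminal filament formation requires, averaged 149 and 1339 in Homoz FB+ovaries against 160 and 1215 in Het FB+ovaries, with overlapping libraries (log2 folds -0.08 ± 0.18 and 0.13 ± 0.14, adjusted p = 0.868 and 0.669). The lamin gene LamC and the secreted Hedgehog and BMP modulator nord had positive folds of 0.32 ± 0.24 and 0.44 ± 0.12, which passed only with the replicate block (adjusted p = 0.518 and 0.0988 without it, 0.0499 and 0.0323 with it). The groups overlapped for LamC and not for nord, which had 164, 160, 197 and 174 counts in Homoz FB+ovaries and 130, 113, 154 and 117 in Het FB+ovaries.

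In the Hedgehog pathway, the ligand and the receptor were lower and no transducer was called. Of 14 tested members 2 were lower (hh and ptc) and none was higher, where 1.72% of all genes were lower, and their median fold was -0.03. The receptor gene ptc had 277, 285, 371 and 381 counts in Homoz FB+ovaries and 544, 440, 552 and 569 in Het FB+ovaries. The groups did not overlap, and the difference was smaller than that of the ligand (log2 fold -0.69 ± 0.14, adjusted p = 0.0346). The ptc call was lost without Homoz FB+ovaries replicate 1 or 2 (adjusted p = 0.0666 and 0.0568), without Het replicate 1, 3 or 4 (0.0890, 0.116 and 0.0987) and with all 16 libraries in the fit (0.0743). The signal transducer smo, the kinase fu and the ligand-release protein disp had folds of 0.10, -0.06 and -0.06 (adjusted p = 0.534, 0.776 and 0.867). The transcription factor ci was at 1493 to 1747 in Homoz FB+ovaries and 1218 to 1415 in Het FB+ovaries, a fold of 0.32 ± 0.09 that passed only with the replicate block (adjusted p = 0.106 without it and 0.0470 with it).

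**Figure D1:**
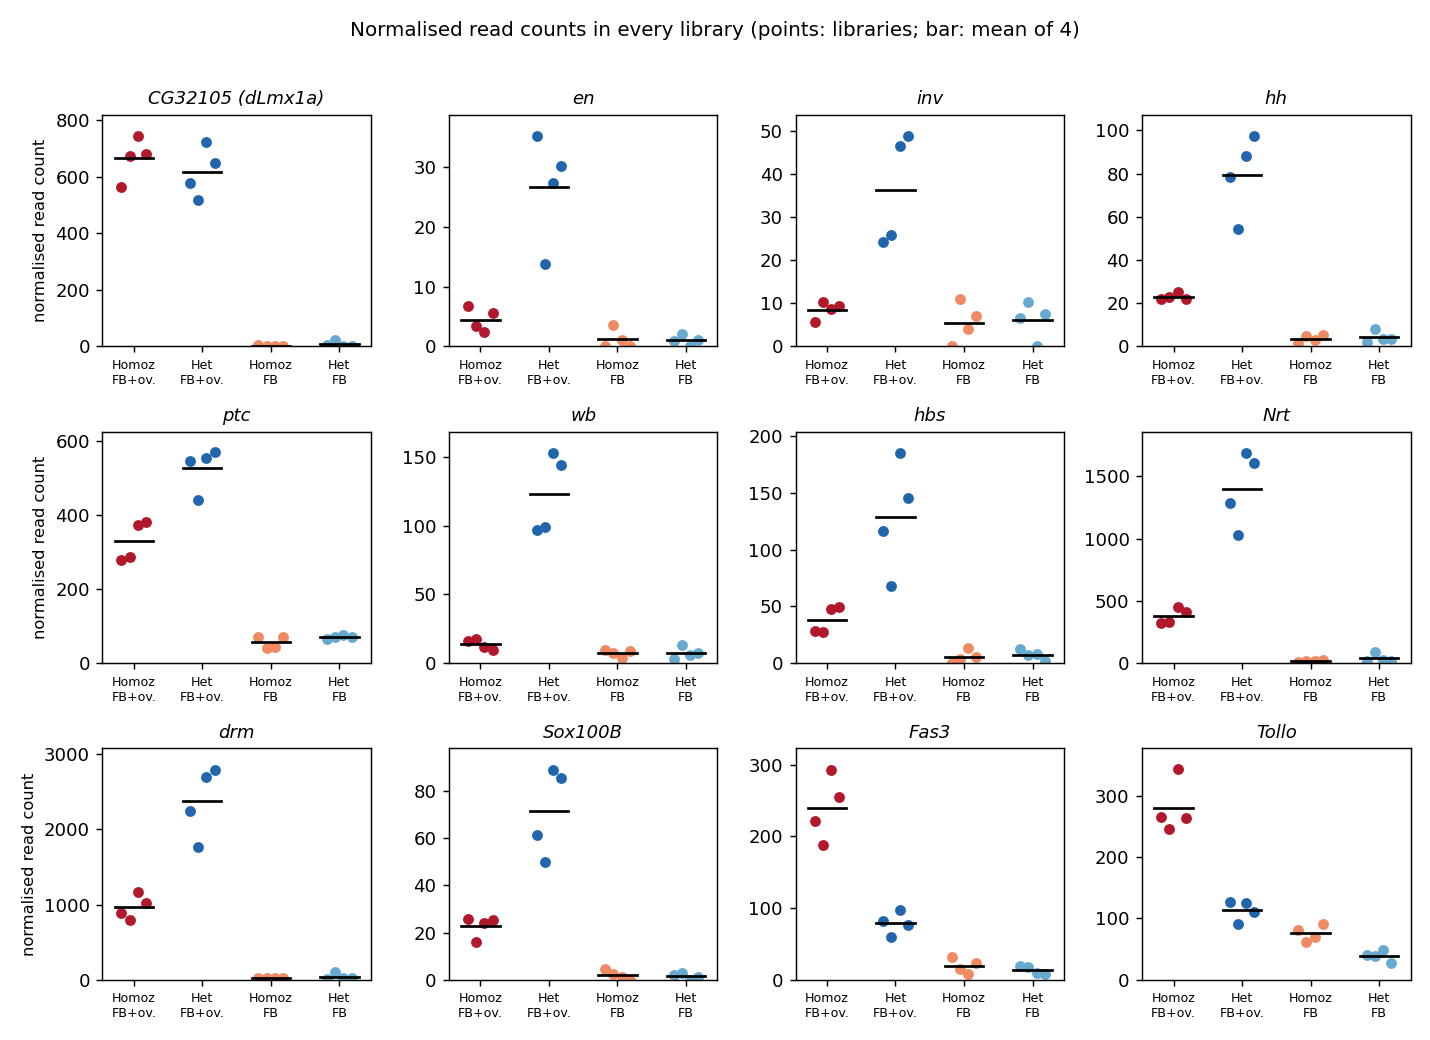
Normalised read counts (y axes, each from 0) of 12 genes in all 16 libraries, by genotype and tissue; points are libraries and bars are means of 4. CG32105 overlaps between genotypes, en, inv, hh, ptc, wb, hbs, Nrt, drm and Sox100B are lower in Homoz FB+ovaries than in Het FB+ovaries, Fas3 and Tollo are higher, and all 12 are lower in the fat body libraries than in the Het FB+ovaries libraries on average.

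Other somatic cells of the ovary showed 1 gene higher and 1 lower out of 11 tested, Fas3 and ptc, where 1.22% and 1.72% of all genes were. Fasciclin 3, a homophilic adhesion protein of follicle cells and their precursors, had 221, 188, 293 and 255 counts in Homoz FB+ovaries and 81.5, 59.3, 97.2 and 76.2 in Het FB+ovaries. The lowest Homoz library held more than the highest Het library (log2 fold 1.60 ± 0.18, adjusted p = 0.00219). The Maf factor tj, of the cells that mingle with the germ cells, and the ligand Wnt4 overlapped between genotypes, with folds of -0.02 ± 0.17 and -0.01 ± 0.13 (adjusted p = 0.965 and 0.986). The homeodomain gene ct was at 45.8 to 90.2 in Homoz FB+ovaries and 73.9 to 150 in Het FB+ovaries (log2 fold -0.78 ± 0.27), which passed only with the replicate block (adjusted p = 0.171 without it and 0.00948 with it).

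The median fold of the germ cell genes was -0.03, against -0.00226 over all genes. None of 26 tested was called by limma, where 2.94% of all genes were. At that share a list of this length can hold no call, so the count says little about germ cells. An unadjusted p below 0.05 was found for 2 of them, and for 1405 of all 7890 genes. EdgeR called none of the 26 and DESeq2 2. The gap junction gene zpg, which germ cells need to survive, was at 80.0 to 109 in Homoz FB+ovaries and 118 to 181 in Het FB+ovaries (log2 fold -0.59 ± 0.16, adjusted p = 0.0958). The helicase vas and the differentiation factor bam had folds of -0.11 and -0.11 (adjusted p = 0.739 and 0.807). The Tudor-domain gene tud passed only with the replicate block, at 5739 to 6253 in Homoz FB+ovaries and 6861 to 8219 in Het FB+ovaries (log2 fold -0.32 ± 0.09, adjusted p = 0.0981 without the block and 0.0374 with it); it was as high without ovaries, with means of 8366 in Homoz FB and 9183 in Het FB.

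Of 14 tested basement membrane genes 1 was called, beside 2.94% of all genes. The laminin alpha chain gene wing blister (wb) had 16.2, 17.2, 11.7 and 9.42 counts in Homoz FB+ovaries and 96.6, 98.8, 153 and 144 in Het FB+ovaries. The groups did not overlap (log2 fold -3.09 ± 0.24, adjusted p = 0.000296), and the median fold of the list was -0.01. Without ovaries wb averaged 7.34 in Homoz FB and 7.31 in Het FB, so that its level in Homoz FB+ovaries, 13.6 on average, lay close to that of fat body alone. It was also the only 1 of 229 called genes that passed the test of the tissue by genotype interaction (difference of folds -3.20 ± 0.53, adjusted p = 0.0478), a test that 0.0511% of 7824 genes passed. The wb call of that test was lost with a pseudocount of 0.5, a minimum mean of 50, equal library totals, TMM scaling, edgeR and the replicate block, and without any 1 library with ovaries, Homoz FB replicate 1, 2 or 4, or Het FB replicate 1, 3 or 4. Papilin (Ppn), a secreted matrix protein, was at 1257 to 1948 in Homoz FB+ovaries and 787 to 1291 in Het FB+ovaries, and passed only with the block (log2 fold 0.58 ± 0.19, adjusted p = 0.153 without it and 0.0215 with it).

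Among 26 adhesion and epithelial polarity genes, 2 were higher (Fas3 and Tollo) and 1 was lower (CadN). Of all genes tested, 1.22% were higher and 1.72% lower. The median fold of the list was 0.05. Tollo, a leucine-rich repeat receptor of the Toll family that acts in epithelial cell arrangement, had 266, 245, 343 and 263 counts in Homoz FB+ovaries and 127, 90.2, 125 and 110 in Het FB+ovaries (log2 fold 1.30 ± 0.14, adjusted p = 0.00218). The groups did not overlap, and in fat body alone the fold was 0.96 (adjusted p = 0.0852). Its relative 18w had a fold of 0.46 ± 0.15 that passed only with the replicate block (adjusted p = 0.160 without it and 0.0333 with it). N-cadherin (CadN) had 272, 244, 301 and 197 counts in Homoz FB+ovaries and 464, 359, 528 and 477 in Het FB+ovaries, without overlap (log2 fold -0.85 ± 0.16, adjusted p = 0.0246). The CadN call was lost without Homoz FB+ovaries replicate 4 (adjusted p = 0.0523), without Het replicate 1, 3 or 4 (0.0724, 0.0858 and 0.0768) and with all 16 libraries (0.5).

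Several called genes outside these lists were low in fat body and high with ovaries, and are named after their values were seen. Neurotactin (Nrt), a transmembrane adhesion protein, had 320, 333, 447 and 414 counts in Homoz FB+ovaries and 1284, 1030, 1687 and 1604 in Het FB+ovaries (log2 fold -1.87 ± 0.17, adjusted p = 0.000782). The zinc-finger gene drm had 886, 793, 1169 and 1023 counts in Homoz FB+ovaries and 2241, 1771, 2695 and 2792 in Het FB+ovaries (log2 fold -1.29 ± 0.17, adjusted p = 0.00486). In both genes every Homoz library lay below every Het library, and fat body alone held at most 36.5 and 38.1 counts on average. The Sox-family transcription factor gene Sox100B had 25.7, 16, 24.2 and 25.1 counts in Homoz FB+ovaries and 61.4, 49.9, 88.9 and 85.4 in Het FB+ovaries (log2 fold -1.59 ± 0.23, adjusted p = 0.00921). The nephrin-like adhesion gene hbs had 28.6, 27.5, 47.6 and 49.4 counts in Homoz FB+ovaries and 117, 67.9, 185 and 146 in Het FB+ovaries (log2 fold -1.69 ± 0.32, adjusted p = 0.0292). Both groups of each gene stayed apart. The hbs call was lost without Homoz FB+ovaries replicate 1 or 2 (adjusted p = 0.0695 and 0.0530) and without Het replicate 1, 3 or 4 (0.0729, 0.0858 and 0.0852), while those of Nrt, drm and Sox100B held with any 1 library left out. With all 16 libraries in the fit, drm, Sox100B and hbs were no longer called (0.158, 0.144 and 0.253). The FGF receptor adaptor gene stumps averaged 304 and 586 (log2 fold -0.92 ± 0.16, adjusted p = 0.0194), the mucin gene Mur89F 128 and 395 (-1.56 ± 0.26, adjusted p = 0.0150) and RhoGAP100F 120 and 297 (-1.32 ± 0.18, adjusted p = 0.00672), with the Homoz FB+ovaries mean first in each pair. Without Homoz FB+ovaries replicate 4 or Het replicate 4 the stumps call was lost (0.0591 and 0.0635), and without Het replicate 3 that of Mur89F (0.0595), as were both with all 16 libraries (0.0974 and 0.266).

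Of the signalling pathways listed, Notch had 1 called member of 14, the ligand gene Serrate (Ser), beside 2.94% of all genes. Ser had 99.1, 79.1, 107 and 87.1 counts in Homoz FB+ovaries and 274, 214, 252 and 230 in Het FB+ovaries, without overlap (log2 fold -1.38 ± 0.12, adjusted p = 0.000758). Its fold in fat body alone was -2.07 (adjusted p = 0.188), and the call with ovaries was lost with all 16 libraries in the fit (adjusted p = 0.177). The receptor gene N and the other ligand gene Dl had folds of -0.12 and 0.30 (adjusted p = 0.805 and 0.267). None of 16 Wnt, 16 BMP, 14 EGF receptor and 5 JAK/STAT genes was called by limma or edgeR; at an unadjusted p below 0.05 there were 4, 2, 1 and 1, and DESeq2 called 1 BMP gene. With the replicate block the glypican gene dally and the transcription factor gene Stat92E passed, with folds of -0.66 ± 0.16 and -0.57 ± 0.17 (adjusted p = 0.0585 and 0.126 without the block, 0.0457 and 0.0205 with it).

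Lists of cell shape, division and hormone response held no called gene, where 2.94% of all genes were called. At that share lists of this length can hold no call, so the counts say little about them. None was called by limma among 15 integrin, 20 actin and non-muscle myosin, 29 cell cycle, 16 ecdysone response and 6 LIM-homeodomain genes, of which 2, 3, 1, 0 and 0 had an unadjusted p below 0.05; edgeR and DESeq2 each called 1 actin and myosin gene and none of the others. Of the cell cycle genes 24 of 29 had a fold above 0, where 3911 of all 7890 genes did, and their median was 0.08. The Cdc25 phosphatase gene stg passed with the replicate block alone (log2 fold 0.47 ± 0.17, adjusted p = 0.193 without it and 0.0303 with it). Over the 17 lists with a tested gene and none called, 69 of 280 genes had an unadjusted p below 0.05, edgeR called 1 and DESeq2 20. Most were cytosolic ribosomal protein genes, with 51 of the 69 and 16 of the 20. Of all 7890 genes tested, 1405 had an unadjusted p below 0.05. The 17 lists included the hemocyte, neuron, trachea, cuticle, testis and salivary glue markers, of which 9, 3, 5, 4, 4 and 5 genes were tested. No gut marker reached the minimum mean.

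No cytosolic ribosomal protein gene was called, though most had a small positive fold. Of 87 tested, 83 had a fold above 0, with a median of 0.26 against -0.00226 over all genes and 0.19 with equal library totals, and 36 did not overlap between the groups, where 12.1% of all genes did not. None was called without the replicate block and 31 were higher with it, beside 4.52% of all genes; 51 had an unadjusted p below 0.05, and edgeR called none and DESeq2 16. RpLP2, of the ribosomal stalk, was at 11883 to 15697 in Homoz FB+ovaries and 10096 to 11019 in Het FB+ovaries (log2 fold 0.38 ± 0.11, adjusted p = 0.100 without the block and 0.0363 with it). In fat body alone the median of the same list was 0.32, and 0 of 83 tested were called.

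**Figure D2:**
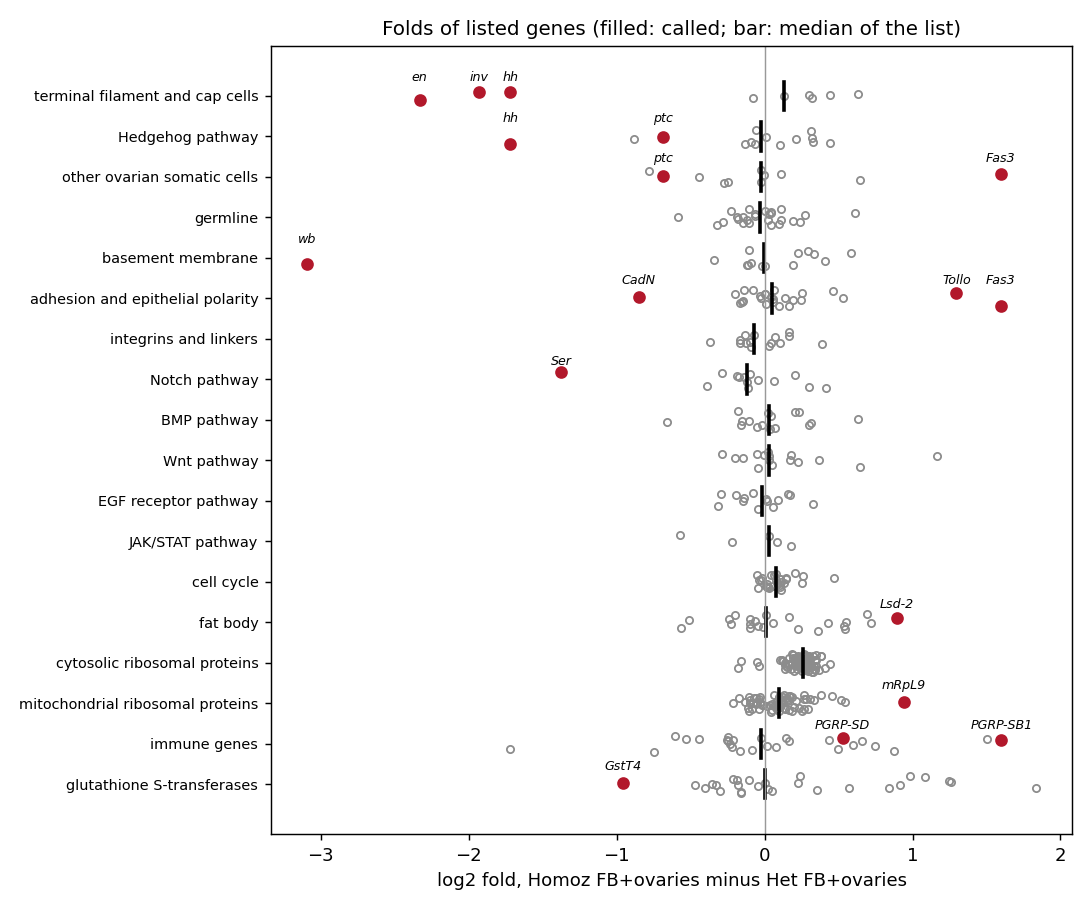
Log2 folds, Homoz FB+ovaries minus Het FB+ovaries (x axis), of the tested genes of 18 lists; each point is a gene, filled and named where it was called, and black bars are list medians. The called genes en, inv, hh, wb and Ser lie far to the left of lists whose medians are near 0. CadN (-0.85) and ptc (-0.69) lie less far to the left, and the uncalled ct (-0.78) lies beyond ptc among other ovarian somatic cells. Of the cytosolic ribosomal proteins 83 of 87 points lie to the right of 0, around a median of 0.26.

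Of the listed genes of fat body functions, 4.35% of the fat body list and 7.41% of the immune list were called, beside 2.94% of all genes. Of 23 fat body genes 1 was called, Lsd-2, a perilipin of lipid droplets, with 10568 to 19446 counts in Homoz FB+ovaries and 6611 to 8780 in Het FB+ovaries (log2 fold 0.89 ± 0.19, adjusted p = 0.0430). That call was lost with equal library totals (adjusted p = 0.0694), with all 16 libraries (0.0890) and without Homoz FB+ovaries replicate 1, 3 or 4 (0.0586, 0.115 and 0.0795) or any 1 Het library (0.0729 to 0.139). The glycogen synthase and phosphorylase genes GlyS and GlyP had folds of -0.57 ± 0.14 and -0.51 ± 0.21 that passed only with the replicate block (adjusted p = 0.0725 and 0.240 without it, 0.0295 and 0.0191 with it). Of 27 immune genes 2 were higher, where 1.22% of all genes were, and both encode peptidoglycan-binding proteins. PGRP-SB1, an amidase that cleaves peptidoglycan, was at 8662 to 17700 in Homoz FB+ovaries and 2891 to 5466 in Het FB+ovaries (log2 fold 1.60 ± 0.25, adjusted p = 0.0125). PGRP-SD had 1883, 1943, 1980 and 1829 counts in Homoz FB+ovaries and 1540, 1144, 1270 and 1367 in Het FB+ovaries (log2 fold 0.53 ± 0.10, adjusted p = 0.0277). That call was lost with equal library totals (0.0684) and without any 1 library other than Homoz replicate 2 or Het replicate 1 (0.0502 to 0.105). The median of the immune list was -0.02.

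Stress, detoxification and mitochondrial ribosome lists each held 1 called gene, where 2.94% of all genes were called. Starvin (stv), a BAG-domain co-chaperone, averaged 363 in Homoz FB+ovaries and 174 in Het FB+ovaries (log2 fold 1.04 ± 0.19, adjusted p = 0.0213), 1 of 12 heat shock and stress genes. Of 48 cytochrome P450 genes Cyp6d5 was lower, and of 27 glutathione S-transferase genes GstT4, which averaged 1146 and 2256 (log2 fold -0.96 ± 0.21, adjusted p = 0.0435). Among 72 mitochondrial ribosomal protein genes mRpL9 was higher, with 209, 207, 177 and 200.1 counts in Homoz FB+ovaries and 95.5, 98.0, 119 and 100.1 in Het FB+ovaries (log2 fold 0.94 ± 0.10, adjusted p = 0.00218). In fat body alone mRpL9 was also called higher (log2 fold 0.79, adjusted p = 0.0395). The GstT4 call was lost without any 1 library other than Het FB+ovaries replicate 4 (adjusted p = 0.0502 to 0.112) and with all 16 libraries (0.0541), and stv without Homoz replicate 1 (0.0553) or Het replicate 2, 3 or 4 (0.0522, 0.0575 and 0.0602).

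The largest folds of the comparison included genes almost silent in Homoz FB+ovaries. CG11893 on 3R had 0.953, 2.29, 4.68 and 3.14 counts in Homoz FB+ovaries and 2629, 3651, 1892 and 1497 in Het FB+ovaries (log2 fold -9.35 ± 0.36, adjusted p = 4.75e-06). Its neighbour CG13658 had 0.953, 0, 0.780 and 2.35 counts in Homoz FB+ovaries and 127, 121, 132 and 124 in Het FB+ovaries (-6.10 ± 0.36, adjusted p = 3.90e-05). CG13659, close by, averaged 28.2 ± 10.6 in Homoz FB+ovaries and 233 ± 104 in Het FB+ovaries (-2.96 ± 0.34, adjusted p = 0.00256). The 3 genes lie between bases 25287474 and 25302317 of 3R (Release 6, RefSeq), and their groups did not overlap. Of the genes between them, CG31098 was also lower, at 27.5 to 88.6 in Homoz FB+ovaries and 93.8 to 127 in Het FB+ovaries. It was not called (log2 fold -1.29 ± 0.33, adjusted p = 0.0802). CG31102 and CG31288 were not called either, with folds of -0.10 and 1.41 ± 0.39 (adjusted p = 0.807 and 0.103). In fat body alone CG11893 and CG13658 were also called, with folds of -8.78 and -5.80, and CG13659 had a fold of -2.72 (adjusted p = 0.127).

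Further large folds were found on other arms and elsewhere on 3R. All genes of this paragraph except TotB were also called lower in fat body alone, with folds from -6.79 (CG42326) to -3.72 (Cyp6d5). TotB had a fold of -4.25 there (adjusted p = 0.0748). CG42326 had 2.86, 8.02, 5.46 and 1.57 counts in Homoz FB+ovaries and 1556, 243, 298 and 305 in Het FB+ovaries (log2 fold -6.46 ± 0.61, adjusted p = 0.000794). The lysozyme gene LysX had 2.86, 0, 2.34 and 0.785 counts in Homoz FB+ovaries and 117, 567, 135 and 109 in Het FB+ovaries (-6.35 ± 0.61, adjusted p = 0.000882). The 7 listed lysozyme genes, LysX among them, summed to 110 to 569 in Het FB+ovaries, so nearly all of their counts there lay on LysX. DESeq2 gave neither LysX nor CG42326 an adjusted p. The gene of the male sterility locus ms(3)76Ba had at most 0.785 counts in Homoz FB+ovaries and 73.1 to 87.5 in Het FB+ovaries (-5.91 ± 0.34, adjusted p = 3.84e-05). Mlc2, a myosin light chain of muscle, had 48.6, 11.5, 17.9 and 26.7 counts in Homoz FB+ovaries and 432, 352, 401 and 412 in Het FB+ovaries (-4.06 ± 0.36, adjusted p = 0.000701). The other 8 tested muscle markers were not called, and the median of that list was 0.02. Cyp6d5 had 1150, 1284, 2202 and 1759 counts in Homoz FB+ovaries against 18717 to 22253 in Het FB+ovaries (-3.73 ± 0.19, adjusted p = 1.66e-05), and CG34034 was at 46.7 to 70.6 in Homoz FB+ovaries and 682 to 1210 in Het FB+ovaries (-4.00 ± 0.20, adjusted p = 1.66e-05). The stress peptide gene TotB was at 4.58 to 9.53 in Homoz FB+ovaries and 17.2 to 382 in Het FB+ovaries (-3.64 ± 0.79, adjusted p = 0.0440), a call lost with a pseudocount of 5 (0.0593), with a minimum mean of 50 (0.0531), with all 16 libraries (0.0527) and without any 1 library other than Het replicate 2 (0.0695 to 0.145).

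On the higher side the folds were smaller. CG42390 had 176, 551, 475 and 461 counts in Homoz FB+ovaries and 52.3, 74.8, 55.6 and 40.4 in Het FB+ovaries (log2 fold 2.79 ± 0.34, adjusted p = 0.00364). CG33093 had 180, 148, 173 and 63.6 counts in Homoz FB+ovaries and 20.1, 35.2, 23.3 and 20.2 in Het FB+ovaries (2.40 ± 0.33, adjusted p = 0.00672). It was also called higher in fat body alone (log2 fold 2.97, adjusted p = 0.0392). The gene of the neuropeptide CNMamide (CG13936, CNMa in RefSeq) averaged 221 ± 78.0 and 61.0 ± 42.2 (2.02 ± 0.43, adjusted p = 0.0431), with 1 Homoz library at 337 and the other 3 at 178 to 185. CG3902 averaged 1612 ± 699 and 470 ± 267 (1.85 ± 0.38, adjusted p = 0.0378). Both of these calls were lost in edgeR (adjusted p = 0.0735 and 0.0562) and without 7 of the 8 libraries in turn: 0.0577 to 0.124 for CG13936, which held only without Het FB+ovaries replicate 2, and 0.0506 to 0.123 for CG3902, which held only without Het replicate 1 and was also lost with all 16 libraries (0.0527). CG5321 had 1577, 1052, 1019 and 799 counts in Homoz FB+ovaries and 363, 393, 404 and 288 in Het FB+ovaries (1.58 ± 0.20, adjusted p = 0.00382). The metalloprotease gene CG4096 (AdamTS-B), which was below the minimum in fat body alone, had 78.1, 59.6, 63.2 and 62.8 counts in Homoz FB+ovaries and 21.1, 29.2, 26.6 and 18.4 in Het FB+ovaries (1.45 ± 0.18, adjusted p = 0.00406). The phosphatase gene rdgC, also below it, had 94.3, 126, 149 and 178 against 32.2, 40.4, 31.6 and 51.4 (1.78 ± 0.22, adjusted p = 0.00394). Dnr1, a negative regulator of the Imd immune pathway, averaged 146 and 51.7 (1.49 ± 0.26, adjusted p = 0.0207), a call lost without Homoz replicate 1 or 3 (0.0554 and 0.0595) or Het replicate 2 or 4 (0.0550 and 0.0616) or with all 16 libraries (0.0665). CG5282 averaged 98.8 and 31.0 (1.61 ± 0.26, adjusted p = 0.0144; 0.0575 without Het replicate 3) and CG6293 averaged 51.7 and 17.7 (1.56 ± 0.27, adjusted p = 0.0199), lost without Homoz replicate 1, 3 or 4 (0.0502, 0.0659 and 0.0547) or Het replicate 4 (0.0628).

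**Figure D3:**
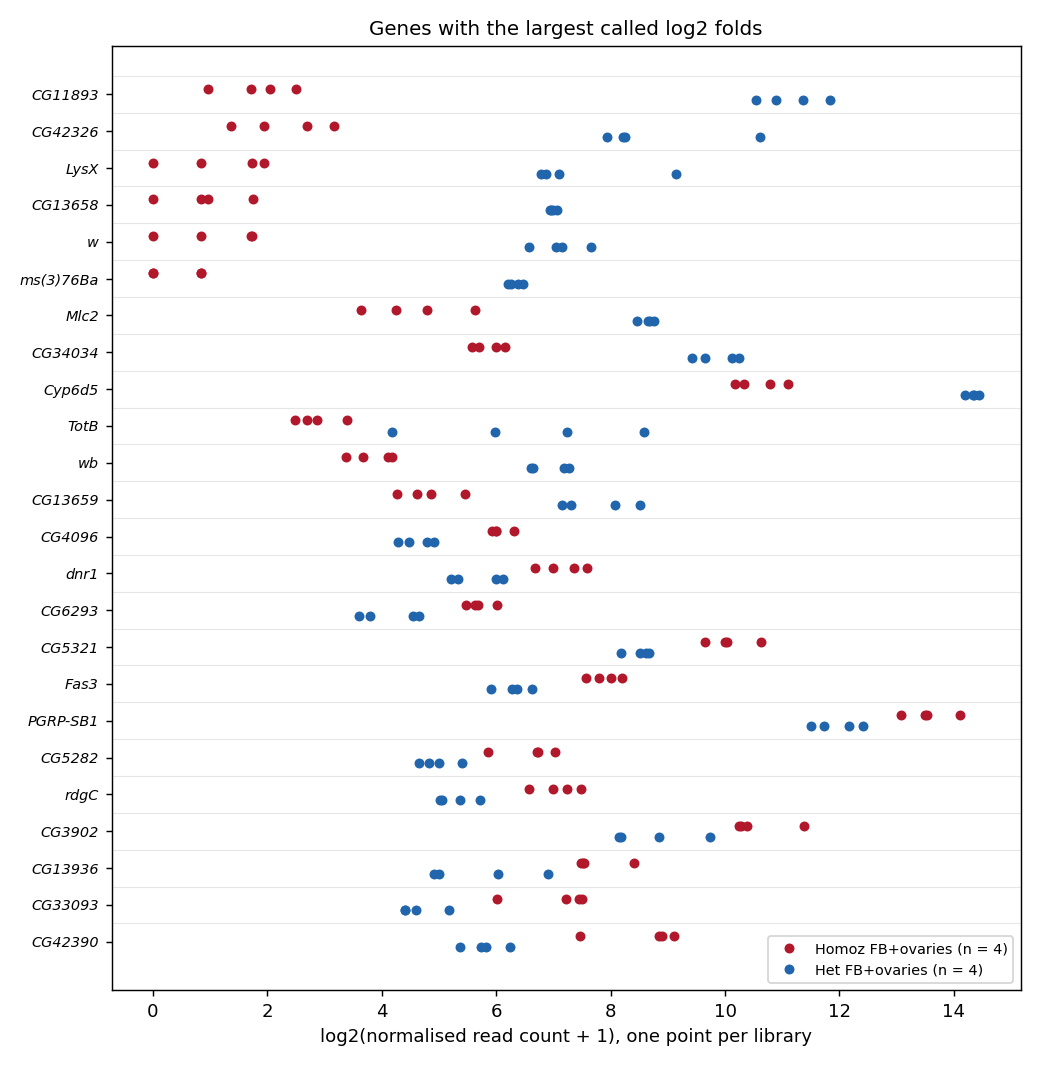
Log2(normalised read count + 1) in each library (x axis) for the 12 called genes with the most negative and the 12 with the most positive folds where the higher group averaged 50 or more; red points are the 4 Homoz FB+ovaries and blue points the 4 Het FB+ovaries libraries. Genes were chosen only where the 2 groups did not overlap, and the gap is widest for CG11893, with a fold of -9.35.

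Most of the called genes moved the same way without ovaries. Of the 232, 213 could also be tested in fat body alone, where 0.281% of 7481 genes were called higher and 0.762% lower, and 209 had the same sign there (98.1%, against 77.4% of all 7329 genes tested in both). Of those, 52 were called in fat body as well, 16 higher and 36 lower, and none in the opposite direction. The 2 comparisons share no library, but they share the genotypes and replicate numbers. The 4 genes of opposite sign were the collagen receptor kinase gene Ddr, form3, wake and CG34347. CG34347 had 75.3, 89.4, 165 and 137 counts in Homoz FB+ovaries and 425, 396, 551 and 600 in Het FB+ovaries (log2 fold -2.12 ± 0.25, adjusted p = 0.00315), and a fold of 0.63 in fat body alone (adjusted p = 0.701). Ddr was at 113 to 174 in Homoz FB+ovaries and 73.1 to 82.5 in Het FB+ovaries (0.90 ± 0.14, adjusted p = 0.0128), and had a fold of -0.76 in fat body alone (0.710). Neither passed for a difference between the tissues by the interaction test (adjusted p = 0.412 for CG34347 and 1 for Ddr). The Ddr call with ovaries was lost without Het FB+ovaries replicate 3 (0.0516) and with all 16 libraries (0.560).

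The other 19 called genes were below the minimum mean in fat body alone and were not tested there. Of the lower ones, 8 have been given above (wb, en, inv, hh, hbs, Sox100B, Mur89F and RhoGAP100F), and the rest of the 11 were rt, CG9492 (Dhc1 in RefSeq) and CG42260. Rotated abdomen (rt), a protein O-mannosyltransferase gene, had 10.5, 13.8, 7.02 and 11.8 counts in Homoz FB+ovaries and 64.4, 50.7, 66.4 and 61.5 in Het FB+ovaries (log2 fold -2.42 ± 0.23, adjusted p = 0.000782). The 8 higher genes included rdgC, CG4096 and CG6293, the potassium channel gene Shaw and the neuroligin gene Nlg1. Shaw had 76.2, 111, 119 and 115 counts in Homoz FB+ovaries and 43.3, 43.8, 44.0 and 44.1 in Het FB+ovaries (1.23 ± 0.15, adjusted p = 0.00382). Nlg1 had 41.0, 37.8, 45.2 and 40.0 counts in Homoz FB+ovaries and 16.1, 10.3, 21.6 and 17.5 in Het FB+ovaries (1.31 ± 0.23, adjusted p = 0.0204), a call lost without Homoz FB+ovaries replicate 1, 3 or 4 (0.0518, 0.0693 and 0.0596) or Het replicate 1 or 4 (0.0556 and 0.0560), or with all 16 libraries (0.134).

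**Figure D4:**
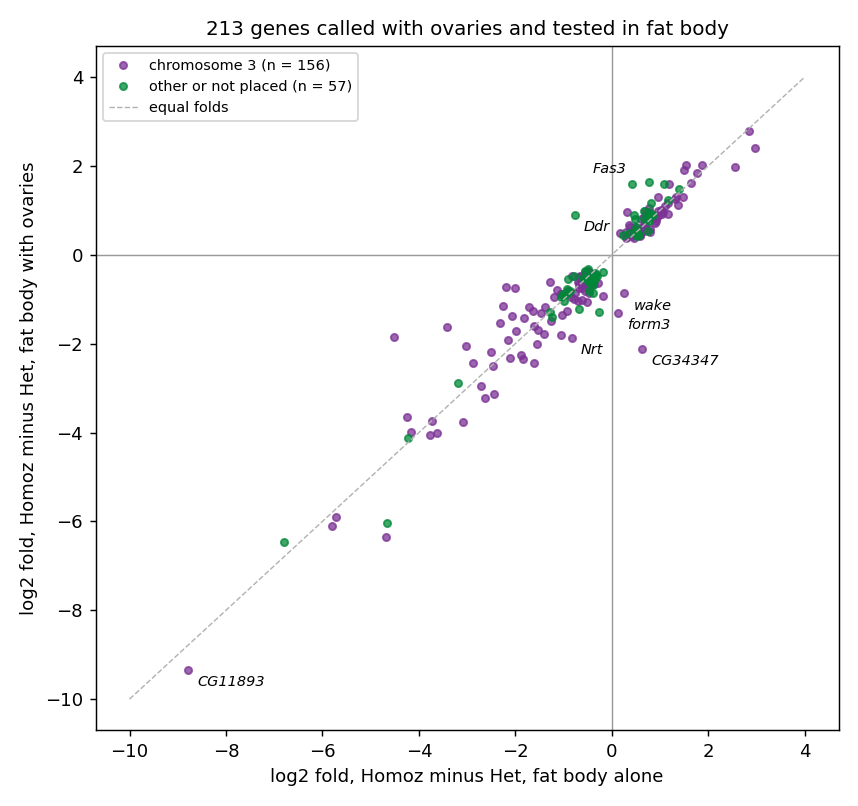
Log2 folds, Homoz minus Het, in fat body with ovaries (y axis) against fat body alone (x axis) for the 213 genes called with ovaries and tested in both; colour marks genes of chromosome 3. 209 of the points have the same sign on both axes, and Ddr, form3, wake and CG34347 lie where the signs differ.

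Called genes were most frequent on chromosome 3, the chromosome that carries both dLmx1a and the balancer. Of 3376 tested genes of that chromosome 167 were called (4.95%), against 64 of 4417 on the other chromosomes (1.45%). By arm the shares were 5.39% on 3R, 4.38% on 3L, 1.82% on the X, 1.71% on 2L and 0.980% on 2R, and none of 64 genes on chromosome 4 was called. Of genes called with at least a 4-fold difference, 29 lay on chromosome 3 and 6 elsewhere. Homoz FB+ovaries females carry 2 copies of a chromosome 3 with a dLmx1a mutation, while Het FB+ovaries females carry 1 such copy and 1 TM3 balancer, so loss of dLmx1a and other differences between those chromosomes cannot be told apart, for any gene on any chromosome. Large differences in genes that RefSeq places off chromosome 3 included w on the X and CG42326 on 2R. A count per gene does not show from which chromosome the reads of such a gene came, and this was not tested. Of the genes given above, en, inv, ptc, hbs, wb, Fas3, CadN and drm lie on chromosome 2, and hh, Nrt, Sox100B, Tollo, Ser and rt on chromosome 3.

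Near dLmx1a itself the share called was read against the 4.38% of its arm. Within 1 Mb of CG32105, 3 of 124 tested genes were called (2.42%), and within 5 Mb 32 of 632 (5.06%). The nearest called gene was ArfGAP1, a GTPase-activating protein gene 79.1 kb away, which averaged 1145 ± 126 in Homoz FB+ovaries and 789 ± 91.8 in Het FB+ovaries (log2 fold 0.54 ± 0.11, adjusted p = 0.0404; 0.0758 with equal library totals and 0.0606 with all 16 libraries). Without Homoz replicate 1, 3 or 4, or Het replicate 2, 3 or 4, that call was lost (0.0579 to 0.131). Next were rt, 741 kb away, and the fucosidase gene Fuca, 807 kb away, which averaged 994 and 1326 (-0.42 ± 0.09, adjusted p = 0.0470). The Fuca call was lost with no minimum mean (0.0516), with a minimum of 50 (0.0507), with all 16 libraries (0.103) and without any 1 library other than Homoz replicate 4 (0.0645 to 0.15).

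**Figure D5:**
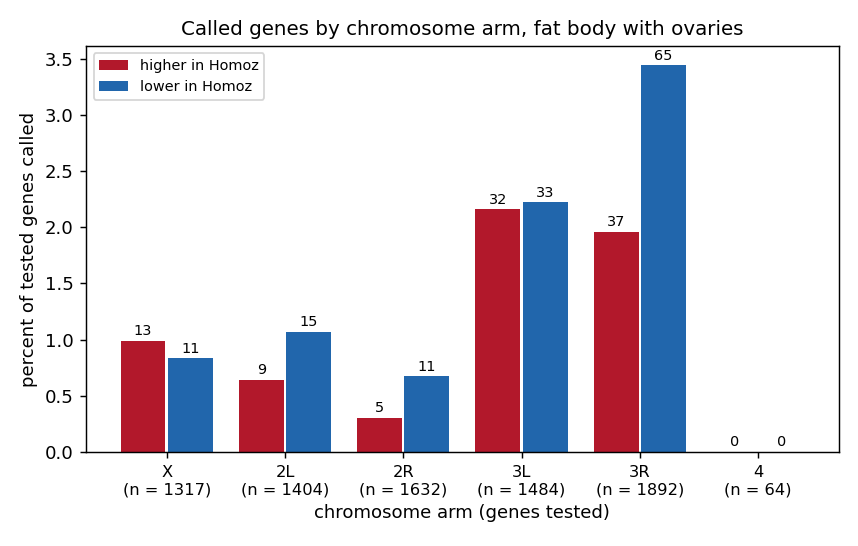
Percent of the tested genes of each chromosome arm (x axis) that were called higher (red) or lower (blue) in Homoz FB+ovaries than in Het FB+ovaries, with the number of genes above each bar. The bars of 3L and 3R, 65 and 102 genes in all, stand above those of X, 2L, 2R and 4.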

How the data were processed

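Per the submitters' processing notes the reads were handled with Trimmomatic 0.36, STAR 2.5.2b and featureCounts of Subread 1.5.0p3 on dm6; strand handling and annotation were not given in the sources used here. The deposited table holds a signal per gene and library, read counts divided by a size factor for each library by the authors. Each value was a whole multiple of 1 step per library within 1e-06, and whole reads were recovered for 100% of values. The design was set for normalised values, so limma 3.58.1 (R 4.3.3; trend) on log2(value + 1) was the main test, tested on simulated data, with edgeR 4.0.16 and DESeq2 1.42.0 on the recovered reads as alternatives. Genes with a mean of at least 10 were kept, and adjusted p-values below 0.05 were called. Each tissue was fitted on its own 8 libraries, and the interaction on all 16. Same-numbered libraries of the 2 genotypes, which the labels number 1 to 4, deviated together (correlations 0.243, 0.413, 0.177 and 0.400; different numbers gave -0.376 to 0.319, the highest between Homoz replicate 4 and Het replicate 3), so the numbers were taken to pair them, from the data and not from the labels; the block is an alternative. The text names dLmx1a and w, the 12 largest folds in each direction (the higher group averaging 50 or more, no overlap), up to 6 called members of each of 32 gene lists (or the 1 with the smallest p), up to 2 passing only with the block, and up to 6 called genes nearest CG32105. The members, gene lists and tests were chosen with earlier results of these data known; other named genes, and 2 further lists, were chosen after their values were seen. Markers of other cell types were among the lists. The gene nub, written among the hemocyte markers by mistake, was left out. Chromosomes came from the RefSeq table of Release 6, which placed 16497 of 16727 genes (12512 by symbol and 3985 by synonym). The values of 1 called gene of the list of branched-chain amino acid breakdown are not reported here.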

Additional observations from a re-analysis of the deposited data

Results flagged for a closer look

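A sample stood far from the other 3 of its group for 8 named genes and for the salivary glue markers, out of 194 groups of named genes and 24 of marker lists that were looked at; chance alone flags about 1 group in 20. In Homoz FB+ovaries, replicate 2 was the lowest for Sox100B (16), and replicate 1 the highest for CG13936 (337), CG3902 (2657) and CG3267 (790). In Het FB+ovaries, replicate 1 was the highest for CG42326 (1556), and replicate 2 the highest for LysX (567) and the lowest for GlyS (688) and Spc105R (131). Salivary glue transcripts summed to 2060 in Homoz FB+ovaries replicate 2 and to 89.5 in Het FB+ovaries replicate 1, each the highest of its group.

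The genotype difference with ovaries differed from that in fat body alone for 4 genes by the interaction test in limma. The laminin gene wb had a difference of folds of -3.20 (adjusted p = 0.0478). The 3 others were the non-coding gene CR32207 (2.87), the kinetochore gene Spc105R (2.97) and hdly (1.77), each with an adjusted p of 0.0405. Spc105R averaged 299 in Homoz FB+ovaries and 188 in Het FB+ovaries (log2 fold 0.68, adjusted p = 0.0681), and 4.68 in Homoz FB and 24.4 in Het FB. Hdly averaged 371 and 504 with ovaries, and 65.6 in Homoz FB and 292 in Het FB, where its fold was -2.20 (adjusted p = 0.00829). CR32207 averaged 31.4 and 47.9 with ovaries, and 0.303 and 13.2 without.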

How the results depend on the processing

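The comparison with ovaries called 232 genes. DESeq2 called 529 and the fit with the replicate block 687; leaving out 1 library gave 82 to 248. Other settings gave 171 to 239. In fat body alone 78 genes were called, 464 by DESeq2, 759 with the replicate block and 8 to 117 with 1 library left out. The interaction test called 4 genes, 20 with DESeq2, 1 with no filter on low values, and 0 with a pseudocount of 0.5, a minimum mean of 50, equal library totals or the replicate block; with 1 library left out it called 0 to 7. The cause of these changes was not tested, except that leaving out a library leaves fewer samples. No called fold of a named gene changed sign under any setting run. The block ended no call of 97 named genes and added 19. Up to 2 genes of each list were named because they passed only with the block. The count added was thus in part fixed by that choice. DESeq2 ended none of the 95 named genes it gave an adjusted p and added 13. Equal library totals ended 8 calls, edgeR 3, and the fit of all 16 libraries 29. On chromosome 3 the share called was above that of the other chromosomes under every setting run, from 1.87% against 0.407% without Het FB+ovaries replicate 3 to 11.4% against 6.59% with the block. Genes near the minimum mean rest on few reads, and 4 libraries a group limit what could be called: bab1, zpg and other uncalled genes are not shown to be alike.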

Other observations

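In a group of 11 genes of branched-chain amino acid breakdown, 7 were called higher in Homoz FB+ovaries and none lower, where 1.22% and 1.72% of all genes were. The group was chosen after the values had been seen and is given as a description. All 11 folds were above 0, with a median of 0.89 against -0.00226 over all genes tested. The subunits of methylcrotonyl-CoA carboxylase, which acts in leucine breakdown, had the largest called folds. Mccc2 (CG3267) had 790, 612, 635 and 603 counts in Homoz FB+ovaries and 314, 262, 237 and 307 in Het FB+ovaries (log2 fold 1.24 ± 0.13, adjusted p = 0.00128). Mccc1 (CG2118) had 928, 620, 660 and 709 counts in Homoz FB+ovaries and 343, 265, 322 and 352 in Het FB+ovaries (1.18 ± 0.14, adjusted p = 0.00340). For both genes the lowest Homoz library was above the highest Het library. The hydratase gene Echs1 (CG6543), the dehydrogenase gene scu, the dehydrogenase subunit gene BckdhA (CG8199) and the thiolase gene Acat1 (CG10932) were also called, with folds of 0.89, 0.81, 0.82 and 0.89 (adjusted p = 0.0144, 0.0159, 0.0265 and 0.0420). The aminotransferase gene Bcat (CG1673) and Dbct (CG5599) passed only with the replicate block (adjusted p = 0.283 and 0.240 without it, 0.0483 and 0.00790 with it), and BckdhB (CG17691) and Hibch (CG5044) did not pass with it (0.108 and 0.0613). In fat body alone the median of the 11 folds was 0.86 and none was called. The calls of Mccc1 and Mccc2 held with any 1 library left out. Those of the other 4 genes named were lost without Het FB+ovaries replicate 3 (adjusted p = 0.0594 for CG6543, 0.0584 for scu, 0.0903 for CG8199 and 0.131 for CG10932). CG6543 and scu were also lost without Het replicate 4 (0.0526 and 0.0534), scu without Het replicate 1 (0.0522), CG8199 without 4 other libraries (0.0543 to 0.0752) and CG10932 without 5 other libraries (0.0563 to 0.105). With all 16 libraries in the fit CG8199 and CG10932 were lost (0.154 and 0.123), and CG10932 also with equal library totals (0.0662).

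Genes of protein entry into the endoplasmic reticulum and of folding there, a list of 30 tested genes also written after values had been seen, had 28 folds above 0 and a median of 0.31. Over all 7890 genes 3911 folds were above 0, and the median was -0.00226. Of them 5 were called higher, where 1.22% of all genes were, and none lower: the chaperone genes Gp93, CG2918 (Grp170) and CG10420 (Sil1), the signal recognition particle receptor gene SrpRbeta and TRAM. Gp93 averaged 14467 in Homoz FB+ovaries and 9992 in Het FB+ovaries (log2 fold 0.53 ± 0.11, adjusted p = 0.0419), and CG10420 407 and 223 (0.87 ± 0.17, adjusted p = 0.0345). With the replicate block 13 of the 30 were higher, where 4.52% of all genes were. With equal library totals 1 of the 30 was higher, where 57 of all 7890 genes were. Each of the 5 calls was lost without at least 6 of the 8 libraries in turn (adjusted p = 0.0508 to 0.147) and with all 16 libraries in the fit (0.0527 to 0.204). The median of the list was 0.34 in fat body alone.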
